A study of Mus musculus with 8 samples.

Results

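The genes of cholesterol and fatty acid synthesis were followed in splenic regulatory T (Treg) cells sorted for high or low activity of the Bach2 locus. They are 37 named genes of the mevalonate pathway, the steps from squalene to cholesterol, the control of SREBP, the making of fatty acids, and sterol transport. They were found by the Ensembl ID of each symbol. Of the 37, 36 were among the 36811 gene models of the deposited FPKM table (fragments per transcript length and library size), and Hmgcs1 was not matched. A filter of FPKM at least 1 in at least 4 of the 8 libraries left 11260 models to test, 33 members among them. Scd1, Fads2 and Abca1 were below it.

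All mice were C57BL/6, aged 12 to 13 weeks, of the genotype Foxp3EGFP-DTR Bach2tdRFP/+. In these mice the Foxp3 locus, the master regulator of Treg cells, drives a green fluorescent protein joined to the diphtheria toxin receptor, and a single Bach2 allele drives a red fluorescent protein (RFP). Bach2 encodes a transcriptional repressor of lymphocytes. CD4 T cells were enriched from spleen, and Foxp3-GFP positive cells were sorted as Bach2-RFP HI or Bach2-RFP LO. Both populations therefore carried both reporter alleles, were heterozygous at Bach2 and came from mice that received no treatment named in the labels. Each population had 4 SmartSeq2 libraries, labelled F1 and F2 for female and M1 and M2 for male, and the labels do not say whether these were separate animals. The p-values thus measure the spread between these libraries, which may be technical.

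Cholesterol is built from acetyl-CoA through mevalonate, farnesyl diphosphate, squalene and lanosterol. When membrane sterol is low, Scap carries the SREBP transcription factors from the endoplasmic reticulum to the Golgi, where they are cleaved and released to switch on these genes, and the Insig proteins hold Scap back when sterol is plentiful. Fatty acids are made from citrate-derived acetyl-CoA by Acly, Acaca and Fasn and then elongated and desaturated. In T cells both routes supply membrane for growth and division, and in Treg cells the mevalonate pathway is known to be needed for suppressive function.

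Promoters of the members were compared first, as a property that the choice of genes did not use. RefSeq promoters of the build GRCm38.p6, cut to the 250 bases before each start, were held for 29 of the 37 members. The motifs below were searched on both strands, and GGGCGG and CACGTG can overlap other GC-rich words. The CCAAT box, the word bound by NF-Y, a partner of SREBP, was present in 22 of 29 members (75.9%) and in 37.5% of the 27025 genes with a promoter of that length. Among tested genes only, which all passed the FPKM filter in these libraries, it was present in 21 of 26 members (80.8%) and in 40.9% of 8247 genes. The GC box GGGCGG was in 20 of 26 tested members (76.9%) and 64.3% of tested genes. The E-box CACGTG was in 6 of 26 (23.1%) against 10.1%. The core TCACNCCAC of a sterol regulatory element was in 1 of the 29, Hmgcs1, and in 1.22% of all genes, and the absence of these letters from a window says nothing about SREBP at that gene. These shares are descriptions with no test.

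Promoters of 4 members are shown as examples: Mvk and Cyp51 of the sterol route, and Ebp and Elovl1, the members whose values leaned to LO most clearly. Capitals mark CCAAT or, for a box on the other strand, ATTGG. Mvk held 5 such boxes, beginning 14, 50, 67, 120 and 173 bases before the start, Ebp held 2, and Cyp51 and Elovl1 each held 1, at 29 and 35 bases. Elovl1 has a further RefSeq start whose window held none. The windows are chr5:114444019-114444268 on the plus strand for Mvk, chr5:4104698-4104947 on the minus strand for Cyp51, chrX:8193513-8193762 on the minus strand for Ebp and chr4:118427843-118428092 on the plus strand for Elovl1.
Mvk: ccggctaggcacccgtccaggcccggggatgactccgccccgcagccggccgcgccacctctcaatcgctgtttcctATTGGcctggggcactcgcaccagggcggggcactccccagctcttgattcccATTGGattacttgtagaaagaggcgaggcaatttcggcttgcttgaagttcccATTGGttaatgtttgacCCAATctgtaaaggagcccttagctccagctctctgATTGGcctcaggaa
Cyp51: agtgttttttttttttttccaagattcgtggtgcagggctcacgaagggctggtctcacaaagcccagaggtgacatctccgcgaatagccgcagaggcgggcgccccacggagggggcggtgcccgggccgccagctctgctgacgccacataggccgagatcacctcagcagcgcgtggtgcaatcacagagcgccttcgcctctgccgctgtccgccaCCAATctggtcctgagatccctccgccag
Ebp: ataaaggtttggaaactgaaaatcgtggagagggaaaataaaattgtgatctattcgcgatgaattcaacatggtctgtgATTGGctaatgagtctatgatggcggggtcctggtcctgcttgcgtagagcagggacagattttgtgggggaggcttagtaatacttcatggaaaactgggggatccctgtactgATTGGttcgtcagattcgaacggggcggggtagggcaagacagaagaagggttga
Elovl1: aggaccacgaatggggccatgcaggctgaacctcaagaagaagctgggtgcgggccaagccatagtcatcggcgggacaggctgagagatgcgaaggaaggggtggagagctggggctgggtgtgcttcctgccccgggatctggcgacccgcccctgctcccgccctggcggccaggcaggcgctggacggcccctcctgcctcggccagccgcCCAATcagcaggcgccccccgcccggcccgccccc

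The sort and the libraries were checked before the members were read. Bach2 itself averaged 15.6 ± 5.56 FPKM in HI and 0.691 ± 0.187 in LO (SD, n = 4 each), a log2 difference of -3.23 (SE 0.34, limma adjusted p = 0.00057), and the libraries did not overlap. Every LO value of Bach2 was below 1 FPKM, so it met the filter through HI alone. Read totals are not in the table. Steps between low values put the relative depth between 0.636 in HI M1 and 5.27 in LO M2, with HI F1 as 1, and the number of models above 0 between 11698 and 14191. The summed FPKM of 10 CD4 T cell and Treg markers was 10319 to 11461 in HI and 10863 to 16023 in LO. Single markers of this list did differ: 2 passed as higher in LO and 1 as lower, Il2ra, Ctla4 and Ikzf2 between them. Log2 differences of the 10 ran from -1.42 to 1.30. Ikzf2 lost its call in 3 of 8 cases with 1 library left out (limma adjusted p up to 0.0658). Some genes listed as markers of other cells differed with the sort, where 8.29% of all tested genes passed in either direction. B cell markers were lower in LO for 3 of 6 tested (Cd79a, Ms4a1, Fcer2a), with sums of 140 to 256 in HI against 75.4 to 100.1 in LO and Pax5 listed at 0 in every LO library. Macrophage markers were lower for 4 of 9 (Csf1r, C1qa, C1qb, Ctss), with sums of 611 to 800 against 371 to 505 and Fcgr1 listed at 0 in every LO library. Siglech was lower among 5 dendritic cell markers (sums 220 to 303 against 136 to 246), Klrd1 and Eomes among 5 CD8 and NK markers (57.1 to 78.8 against 32.4 to 42.4), and Jchain and Prdm1 were higher among 6 plasma cell markers (125 to 150 against 180 to 270). With 1 library left out, Klrd1 lost its call in 6 of 8 cases (adjusted p up to 0.114) and Eomes in 2 of the 4 in which it was tested (up to 0.0565). Fcer2a and C1qb did not pass without the shallowest and deepest library (limma adjusted p = 0.102 and 0.0856). Ctss did not pass with scaling by the summed FPKM of protein-coding genes (0.057), nor C1qa with 0.1 in place of 1 added before the log2 (0.0517). No neutrophil marker of 2 tested passed (sums 31.2 to 117 in HI against 30.4 to 186 in LO), and no erythroid marker of 4 (27.7 to 206 against 14.1 to 360). Their part in the results below was not tested. In bulk samples such as these, the number of cells of a type and the RNA per cell cannot be told apart. Nor can it be told whether Treg cells themselves made the RNA of a listed gene, such as Prdm1.

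Every tested member had a value above 0 in every library of both populations. Of the 33 tested members, 23 had a mean over the 8 libraries of at least 10 FPKM, and Ebp (157 FPKM), Acly (132) and Elovl1 (113) were the 3 at 100 or more. FPKM is a value per transcript length, so levels can be set side by side. Srebf1 (90.5), Insig2 (76.1) and Fdps (57.9) came next, while Acaca (4.85), Idi1 (2.38) and Elovl6 (1.68) were the 3 below 5. Neighbours in this order mostly lay within each other's range over libraries, as Ebp and Acly did. The order was nearly the same in both populations, with a Spearman correlation of 0.972 between the mean log2 levels of HI and LO, which is taken across 33 genes that are not independent replicates. Members differed widely in how steady they were. The highest library was less than 2 times the lowest for 12 members and more than 5 times for 5.

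**Figure D1:**
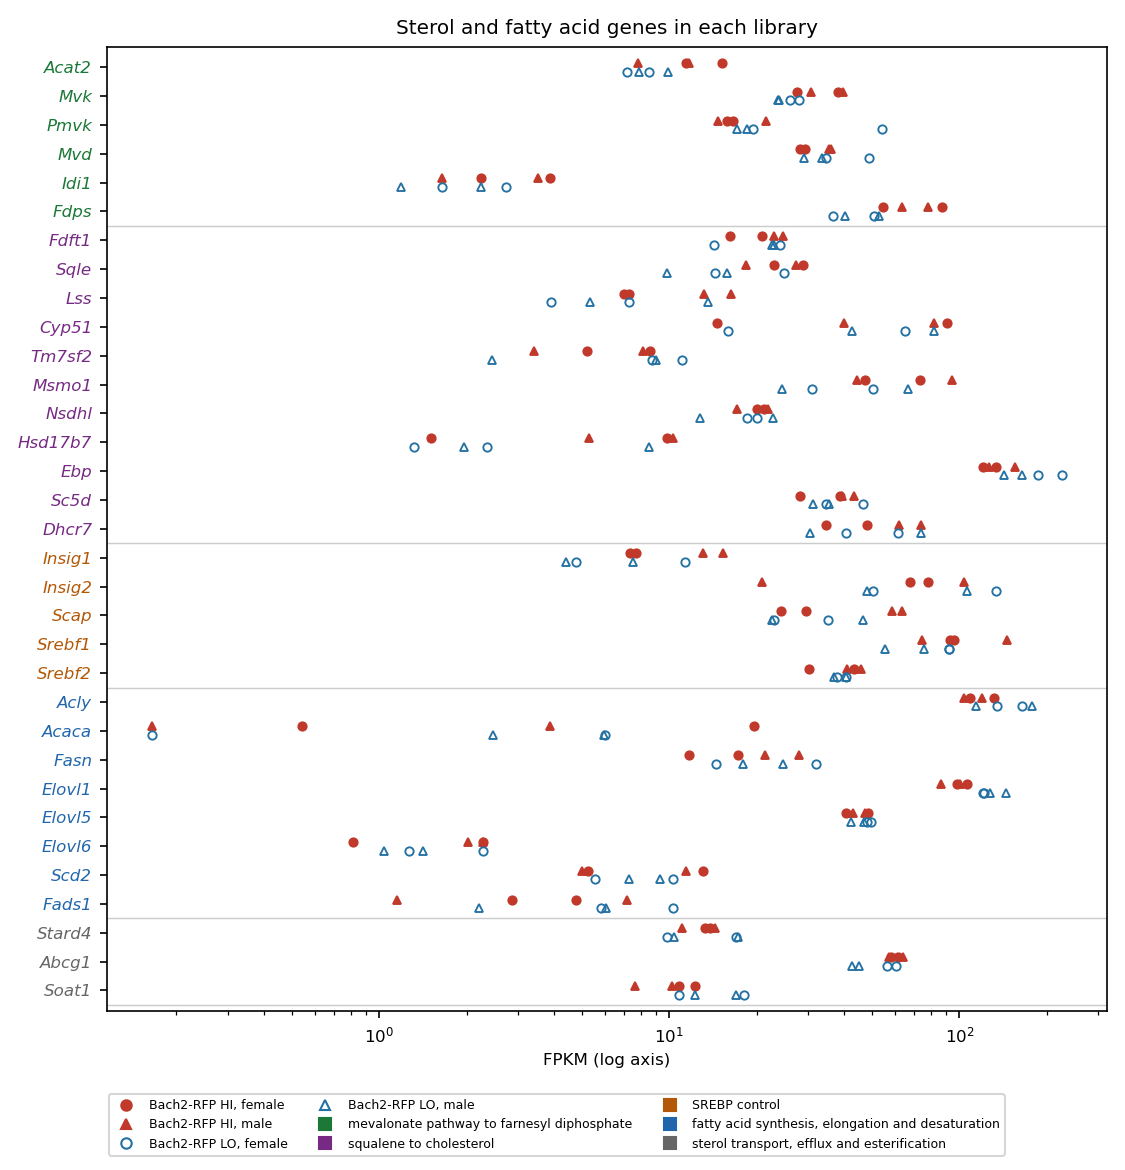
FPKM of the 33 tested members on a log axis, grouped by role. Filled red marks are HI libraries and open blue marks are LO libraries, circles female and triangles male. The points of HI and LO lie among each other for all members but Fdps, where LO is lower, and Elovl1, where LO is higher.

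Between LO and HI, no member passed the test. The count was 0 of 33 higher and 0 of 33 lower (limma with Benjamini-Hochberg adjustment over all tested genes, at 0.05), where 8.29% of all tested genes passed, 4.65% higher and 3.64% lower. The smallest adjusted p of a member was 0.104, for Fdps. At an unadjusted p below 0.05 there were 3 of 33 members, Fdps, Elovl1 and Ebp, a share of 9.09% against 20.9% of all tested genes. The 4 LO and 4 HI libraries did not overlap for 2 of 33 members, against 15.1% of all genes (7.9% with LO above, 7.18% with LO below). The median log2 difference of the tested members was -0.023, with a range from -0.78 (Hsd17b7) to 0.54 (Fads1), and that of all tested genes was -0.026. With 13 members above 0 and 20 below, no common direction was seen. For 18 of 33 members (54.5%) the 95% interval of the difference lay within 2-fold either way, against 39.7% of all tested genes. For the other 15 members a 2-fold difference lay within the interval, so a difference of that size was not excluded at this spread. With libraries scaled by their summed FPKM over protein-coding genes, which moved the median of all tested genes by 0.19, 2 members passed, Elovl1 (adjusted p = 0.0262) and Ebp (adjusted p = 0.0493).

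**Figure D2:**
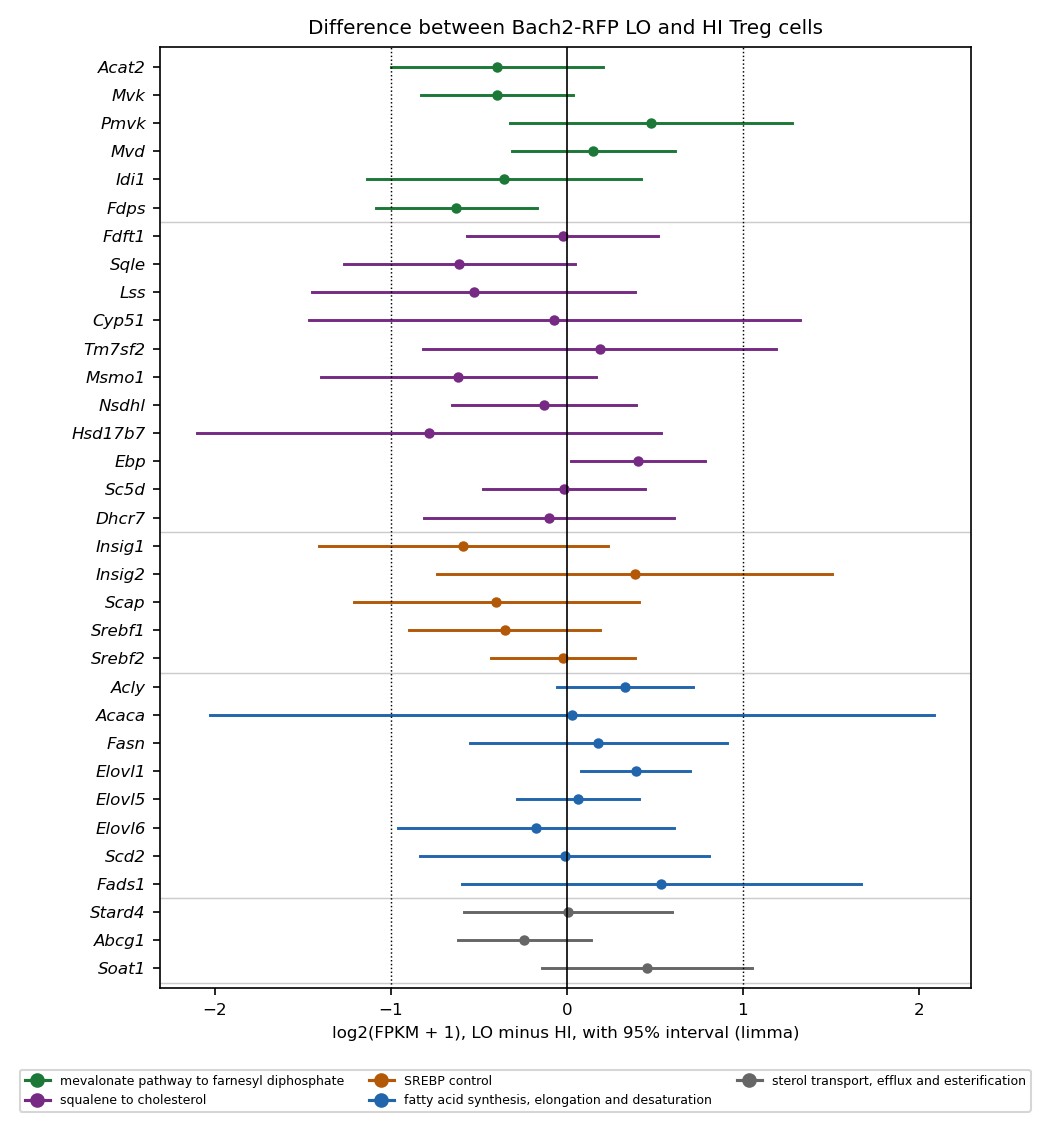
Log2 difference between LO and HI for each tested member, on the scale of log2(FPKM + 1), with its 95% interval from limma. Dotted lines mark 2-fold. All 33 points lie within the dotted lines, and the intervals of Fdps, Elovl1 and Ebp leave out 0 before adjustment.

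Of the 6 tested enzymes of the mevalonate pathway, 4 had a difference below 0, the median was -0.38, and none passed the test. Fdps, which joins isoprene units into farnesyl diphosphate, the branch point to sterols and to prenylated proteins, had 54.3, 87.2, 63.6 and 77.7 FPKM in HI F1, F2, M1 and M2. In LO it had 36.7, 50.9, 40.5 and 52.6, so that every LO library lay below every HI library. The means were 70.7 ± 14.6 and 45.2 ± 7.77 (log2 difference -0.63, SE 0.205, 95% interval -1.09 to -0.17, limma adjusted p = 0.104). A two-sided exact permutation test of this gene alone gave p = 0.0286, the smallest that 4 against 4 libraries allow. With the number in the label (1 or 2) as a covariate, chosen after seeing the data, Fdps passed at an adjusted p of 0.0312. In a newer annotation of another build, 26.7% of the exon bases of Fdps are shared with the model Gm43738 on the same strand, which is not in the table, so fragments of the 2 models cannot be told apart.

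Mvk, which phosphorylates mevalonate, had means of 34.1 ± 5.87 in HI and 25.4 ± 2.04 in LO (adjusted p = 0.28). Its LO libraries, 23.7 to 28.1 FPKM, reached into the HI range of 27.6 to 39.8 only through HI F1. Mvd, which makes isopentenyl diphosphate, ran from 28.3 to 36.1 in HI and 29 to 48.6 in LO. Pmvk, the enzyme before it, was between 14.7 and 21.6 in all libraries but LO F2, where it was 54.3. The first enzyme, the thiolase Acat2, had 7.83 to 15.1 in HI against 7.13 to 9.9 in LO, and Idi1, which isomerizes isopentenyl diphosphate, was low in both at 1.64 to 3.87 and 1.19 to 2.74. None of these ranges was separated.

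Among the 11 genes from squalene to cholesterol, 9 of 11 had a difference below 0, with a median of -0.10. Sqle, squalene epoxidase, the rate-controlling step of this stretch, had 23, 29, 18.3 and 27.4 FPKM in HI F1, F2, M1 and M2. In LO it had 14.4, 24.9, 9.8 and 15.8. Each LO library was below the HI library of its label, but LO F2 lay above HI F1 and HI M1, and the groups overlapped (means 24.4 ± 4.77 and 16.2 ± 6.33, log2 difference -0.61, 95% interval -1.27 to 0.047, adjusted p = 0.276).

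Ebp, the sterol isomerase that shifts the ring double bond, had a difference above 0. It had 134, 120, 127 and 156 FPKM in HI and 225, 187, 164 and 142 in LO F1, F2, M1 and M2. Only LO M2 lay within the HI range, below HI M2 (means 134 ± 15.4 and 179 ± 35.3, log2 difference 0.40, SE 0.171, adjusted p = 0.21, exact permutation p = 0.0571).

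Cyp51, the lanosterol demethylase, had 14.6, 90.7, 40.1 and 81.7 FPKM in HI and 15.9, 65.1, 42.6 and 81.5 in LO. Library F1 was lowest in both populations, and F2 and M2 were the 2 highest in both. The difference between LO and HI was -0.07 on the log2 scale, and its interval, -1.47 to 1.33, was among the widest of the members.

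Hsd17b7, the ketoreductase of sterol demethylation, had the lowest point estimate of the tested members (-0.78) on scattered values: 9.8, 1.51, 10.3 and 5.3 in HI and 1.32, 2.34, 1.96 and 8.53 in LO (adjusted p = 0.512). Msmo1, the oxidase of the same stretch, had 44.5 to 94.2 in HI and 24.5 to 66.4 in LO. Nsdhl, its dehydrogenase, had 17.1 to 21.9 and 12.7 to 22.8. Fdft1, which makes squalene, and Lss, which closes it into lanosterol, overlapped between groups, at 16.2 to 24.7 against 14.3 to 24.1 for Fdft1 and 6.97 to 16.3 against 3.92 to 13.6 for Lss. Tm7sf2, a sterol reductase, was 3.42 to 8.55 in HI and 2.45 to 11.1 in LO. Close to the end of the route, Sc5d, the desaturase, had 28.2 to 43.2 in HI against 31.2 to 46.4 in LO, and Dhcr7, which makes cholesterol from its direct precursor, had 34.6 to 73.5 and 30.6 to 74. Some of these models overlap another gene in that annotation: 18.3% of the exon bases of Fdft1 lie opposite Ctsb, 3.76% of Cyp51 opposite Akap9, and 12.1% of Tm7sf2 on the same strand as Vps51. Use of strand in counting is not given in the sources used here, and these fragments cannot be told apart. Ctsb averaged 144 ± 13.0 FPKM in HI and 201 ± 37.3 in LO, every LO library above every HI library (log2 difference 0.47, limma adjusted p = 0.121). Akap9 and Vps51 overlapped between the groups. The part of Ctsb in the values of Fdft1 was not tested.

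**Figure D3:**
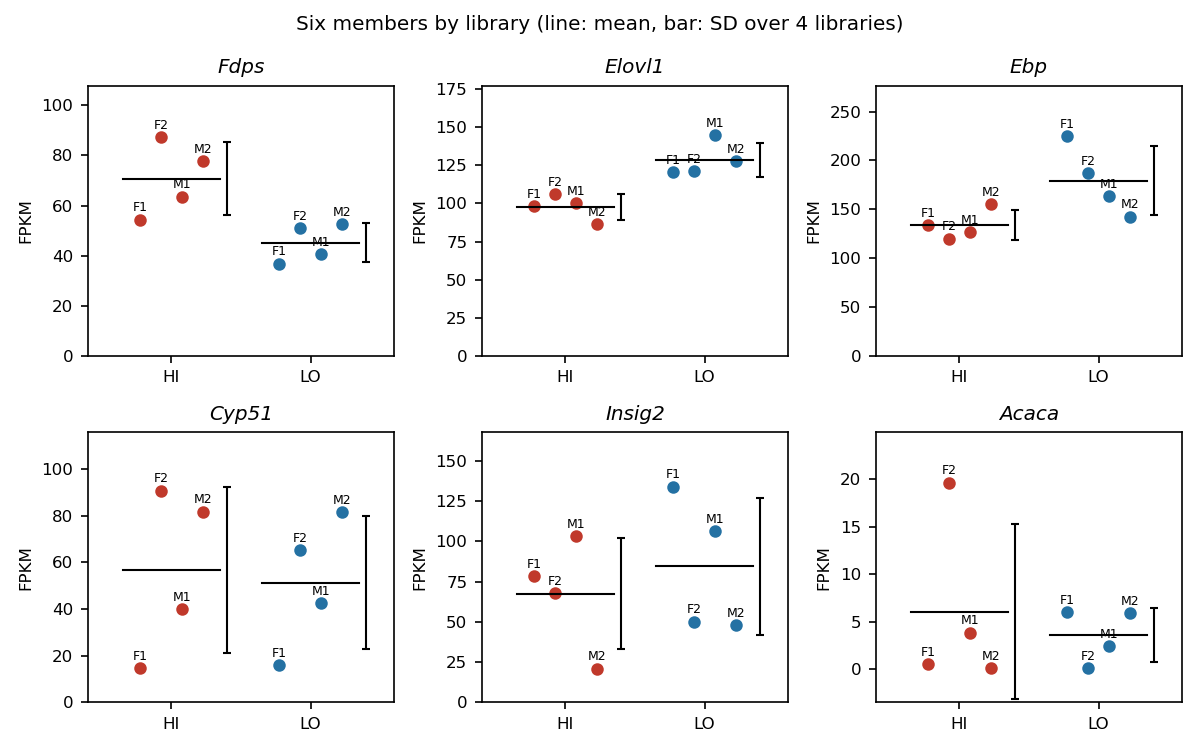
FPKM of Fdps, Elovl1, Ebp, Cyp51, Insig2 and Acaca in each library, labelled F1, F2, M1 and M2. Lines are means and bars SD over the 4 libraries of a group. In Fdps and Elovl1 the groups are apart, while in Cyp51 the libraries F2 and M2 are high in both groups and in Acaca the values run from 0.165 to 19.6 within HI.

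The SREBP control genes did not part the 2 populations. Srebf2, the factor that chiefly drives cholesterol synthesis, had 30.3, 43.3, 41.1 and 45.6 FPKM in HI and 38, 40.7, 36.9 and 40.5 in LO, means of 40.1 ± 6.77 and 39 ± 1.89. Its log2 difference was -0.023 with an interval of -0.43 to 0.39, so a 2-fold change lay outside it. Srebf1, which chiefly drives fatty acid synthesis, had 92.4, 96, 146 and 74.5 in HI and 92.3, 92.4, 55.3 and 75.8 in LO (log2 difference -0.35, interval -0.90 to 0.19, adjusted p = 0.461). HI M1 was its highest library and LO M1 its lowest, with the remaining 6 between 74.5 and 96.

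Scap, the escort of SREBP, had 29.5, 24.4, 58.7 and 63.5 FPKM in HI and 35.3, 23, 22.6 and 46.6 in LO (adjusted p = 0.595). Insig1 had 7.32, 7.66, 15.3 and 13.1 in HI and 11.3, 4.77, 4.39 and 7.49 in LO (log2 difference -0.59, adjusted p = 0.414). Insig2, the second anchor, was more abundant, with 78.2, 67.8, 103 and 20.9 in HI and 134, 50.2, 106 and 48.1 in LO (log2 difference 0.39, interval -0.74 to 1.51). In each of these 3 genes the libraries of a group spanned more than the distance between the group means. For Scap, 13.2% of the exon bases lie opposite the model 5830462I19Rik.

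Of the 8 tested genes of fatty acid synthesis, elongation and desaturation, 6 had a difference above 0, the median was 0.12, and none passed the test. Elovl1, which elongates saturated fatty acids to very long chains, had 98.2, 106, 100 and 86.2 FPKM in HI and 121, 121, 145 and 128 in LO F1, F2, M1 and M2. Every LO library was above every HI library. The means were 97.7 ± 8.28 and 129 ± 11.1 (log2 difference 0.39, SE 0.139, 95% interval 0.083 to 0.70, adjusted p = 0.131, exact permutation p = 0.0286, again the smallest possible). Elovl1 shares 1.94% of its exon bases with Cdc20 on the opposite strand, a mitotic gene that was itself higher in LO (17.1 ± 10.8 and 47.5 ± 14.6 FPKM, log2 difference 1.53, adjusted p = 0.0449). The part of Cdc20 in the values of Elovl1 was not tested.

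Acly, which makes cytosolic acetyl-CoA from citrate for both routes, was one of the steadier members. It had 104 to 132 in HI and 114 to 177 in LO, higher in LO in each of the 4 labels (means 116 ± 12.5 and 148 ± 28.7, log2 difference 0.33, adjusted p = 0.315). Acaca, acetyl-CoA carboxylase, the committed step, had 0.541, 19.6, 3.86 and 0.165 in HI and 6.01, 0.165, 2.46 and 5.93 in LO. This was the widest scatter of any tested member, its interval ran from -2.03 to 2.09, and nothing can be said of its direction. Fasn, the synthase, had 11.7, 17.3, 21.4 and 28.1 in HI and 14.5, 32.1, 17.9 and 24.7 in LO (log2 difference 0.18, interval -0.55 to 0.91, adjusted p = 0.812).

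Elovl5, the elongase of polyunsaturated chains, varied little, with 40.7 to 48.3 FPKM among HI libraries and 42.4 to 49.7 among LO libraries. Elovl6, which extends palmitate, lay near the filter, with 0.815 to 2.28 FPKM among HI libraries and 1.04 to 2.28 among LO libraries. Scd2, a stearoyl-CoA desaturase, had 5 to 13 in HI and 5.55 to 10.3 in LO. Fads1, the delta-5 desaturase, had the highest point estimate of the tested members (0.54) with values of 4.76, 2.88, 1.15 and 7.17 in HI and 5.82, 10.3, 2.2 and 6.05 in LO (adjusted p = 0.615). Its groups overlapped. Of the 2 untested genes of this group, Scd1 had 0.515, 0.809, 1.21 and 2.2 FPKM in HI, and in LO it was listed at 0 in F1 and F2 and had 0.257 in M1 and 0.391 in M2, every LO value below every HI value. Fads2 was listed at 0 in every LO library and in HI F2 and M1, with 0.913 and 1.12 in the remaining HI libraries. The table holds no read totals, and the fragments behind these values were not counted. Low values move in the steps used above for relative depth, so these can rest on few fragments. The separation of Scd1 therefore has little weight.

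In the 3 tested genes of sterol handling HI and LO overlapped. Abcg1, an exporter of sterol, had 57.3 to 63.8 FPKM in HI and 42.7 to 60.3 in LO, lower in LO in each label (means 60.1 ± 2.98 and 51.1 ± 8.56, log2 difference -0.24, adjusted p = 0.473). Soat1, which esterifies cholesterol for storage, had 7.63 to 12.2 in HI against 10.8 to 18.1 in LO, and Stard4, a sterol carrier, had 11.1 to 14.4 and 9.83 to 17.2. The other exporter, Abca1, was untested, with HI libraries at 0 to 2.06 and LO libraries at 0.119 to 1.3.

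The difference between LO and HI was also compared between the sexes, with 2 libraries per sex and group. No member passed this interaction test (0 of 33, limma adjusted p = 0.999 for Insig1, Scap, Ebp and Acaca alike, and 0 of 33 at an unadjusted p below 0.05), where 0.0178% of all tested genes passed and 3.83% had an unadjusted p below 0.05. For 18 of 33 members the difference had the same sign in both sexes. Insig1 had a log2 difference of -0.0095 in female and -1.17 in male libraries, Scap 0.087 and -0.89, and Ebp 0.69 and 0.12. With 2 libraries on a side these values have no weight beyond description.

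Several members followed the number in the library label more closely than the sort. The labels do not say what the number stands for, and the comparison was chosen after seeing the data. Cyp51 averaged 28.3 ± 15.1 FPKM in the 4 libraries numbered 1 and 79.8 ± 10.7 in the 4 numbered 2 (log2 difference 1.61, limma adjusted p = 0.301). Scd2 averaged 5.76 ± 1.03 and 11 ± 1.6 (0.83, adjusted p = 0.379), and Insig2 averaged 105 ± 22.8 and 46.7 ± 19.3 (-1.24, adjusted p = 0.321). In these 3 of 33 members the libraries of the 2 numbers did not overlap, against 3.86% of all tested genes (1.77% with number 2 above), and 7 of 33 had an unadjusted p below 0.05, against 10.2%. No member passed after adjustment, and 1 gene of all tested did (0.00888%), the immediate early gene Fos (log2 difference -4.78, adjusted p = 0.0438). Of 4 tested erythroid markers, 3 had an unadjusted p below 0.05, all 4 were lower in the libraries numbered 2, and the median was -2.06. The erythroid list was not alone in this. The 2 tested neutrophil markers (median -0.88) and the 5 CD8 and NK markers (-0.35) were all lower as well. CD4 T cell and Treg markers leaned the other way (7 of 10 higher, median 0.17), as did plasma cell markers (4 of 6, 0.12). The part of any of these markers in the values of Cyp51, Scd2 and Insig2 was not tested.

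The lists of neighbouring pathways were read in the same fit, each against the shares of all tested genes given above. Of 18 tested other sterol genes, 1 was lower and 0 higher, with a median of -0.33. The lower one was Apoe, the apolipoprotein that carries sterol between cells and is abundant in macrophages. It had 75.7, 61.7, 87.9 and 69.7 FPKM in HI and 21.4, 29.9, 38.5 and 23.2 in LO (log2 difference -1.38, adjusted p = 0.00417), and was lower together with the macrophage markers above, whose part in it was not tested. Lbr, a lamin B receptor with sterol reductase activity, averaged 121 ± 13.6 in HI and 170 ± 15.5 in LO without passing (log2 difference 0.48, adjusted p = 0.0735). Npc2, a lysosomal sterol carrier, was at -0.48 (adjusted p = 0.0835), and Fdx1, a mitochondrial electron donor for sterol hydroxylation, at -0.84 (adjusted p = 0.192).

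Of 11 genes for SREBP processing and sterol-regulated degradation, 1 was higher and 0 lower, with a median of 0.0052. Sec24d, a cargo adaptor of the COPII coat, rose from 4.86 ± 1.41 to 14 ± 3.28 FPKM (log2 difference 1.36, adjusted p = 0.0243). It lost its call when 1 library was left out in 5 of 8 cases, with adjusted p up to 0.0788. Mbtps2, a protease that releases SREBP, was at -1.13 (adjusted p = 0.101), and Erlin1 and Erlin2, scaffolds of degradation in the endoplasmic reticulum, were at -0.80 (0.255) and 0.40 (0.641). Of 14 genes of the prenyl branch, which uses the product of Fdps, none passed, and the median was -0.24. Fntb, the beta subunit of protein farnesyltransferase, came closest, with 28.5, 26.7, 15.8 and 36.6 in HI and 6.34, 15.1, 3.39 and 11.4 in LO (log2 difference -1.58, adjusted p = 0.0502). Its libraries did not overlap. Zmpste24, a protease that matures farnesylated proteins, was at -0.70 (0.197), Rabggtb at -0.66 (0.257) and Fnta, the alpha subunit, at -0.26 (0.497).

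Among 16 tested other fatty acid synthesis genes, 1 was higher, 0 were lower and the median was 0.083. Hacd3, a dehydratase of the elongation cycle in which Elovl1 acts, had 42.9, 29.6, 50.4 and 33.4 FPKM in HI and 76.1, 80.1, 82.5 and 109 in LO (log2 difference 1.15, adjusted p = 0.00835). Acss1, which activates acetate in mitochondria, was at -1.18 (adjusted p = 0.0927), and the acyl-CoA synthetases Acsl3 and Acsl4 were at -1.95 (0.106) and 0.80 (0.129). Of 19 fatty acid oxidation genes, 1 was higher and the median was 0.16. That was Fabp5, a fatty acid carrier, which rose from 12.9 ± 5.31 to 27.6 ± 4.34 (log2 difference 1.09, adjusted p = 0.0398) and lost its call in 7 of 8 cases with 1 library left out, with adjusted p up to 0.107. Acadl was at 0.56 (0.0901), Cpt1a, the gate of mitochondrial oxidation, at 0.79 (0.12) and Acads at 0.53 (0.234).

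Of 16 tested lipid droplet and triglyceride genes, 1 was lower, with a median of 0.13. G0s2, an inhibitor of triglyceride lipase, had 16.8, 8.78, 23.4 and 4.55 FPKM in HI and was listed at 0 in every LO library (adjusted p = 0.00127), so no fold is given. It met the FPKM filter only through HI, the group where it was high, so its call carries little weight. With 1 library left out it was tested in only 4 of 8 cases. Dgat1, which makes triglyceride, was at 0.88 (adjusted p = 0.0574), Abhd5, an activator of lipolysis, at 0.88 (0.0887) and Hilpda at -0.47 (0.314). Of the cell cycle genes, 13 of 18 were higher in LO and 0 lower, with a median of 1.83, among them Rrm2 (14.9 ± 3.28 to 88.3 ± 23.3), Cdk1 (6.95 ± 3.73 to 71.6 ± 20.7), Mki67 (1.12 ± 0.741 to 16.3 ± 4.65) and Plk1 (3.25 ± 1.6 to 21.3 ± 4.48). Not all 13 calls were stable. Tyms lost its call in 6 of 8 cases with 1 library left out (limma adjusted p up to 0.122) and Stmn1 in 5 of 8 (up to 0.0971). Mcm3 and Aurkb did not pass without the shallowest and deepest library (limma adjusted p = 0.0681 and 0.0538). Over all 8 libraries the median of the sterol and fatty acid members was -0.023, as given above.

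**Figure D4:**
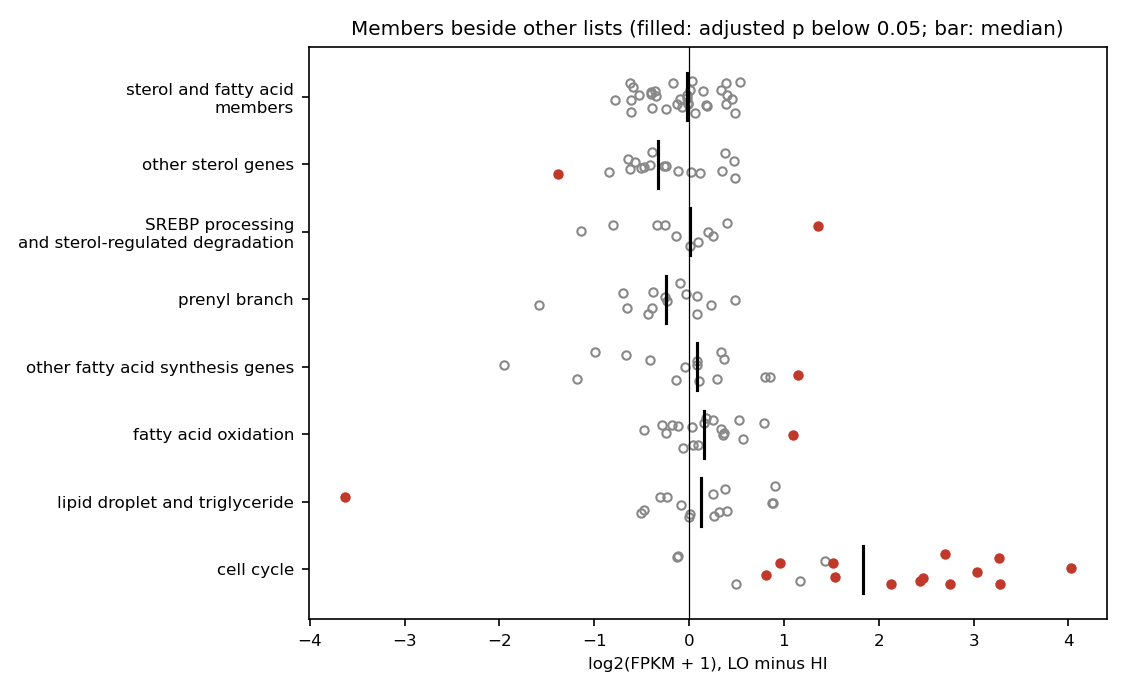
Log2 difference between LO and HI for every tested gene of 8 lists, on the scale of log2(FPKM + 1). Filled red points passed the test at an adjusted p of 0.05 and bars are list medians. The members and the neighbouring lipid lists lie around 0 with at most 1 passing gene each, while 13 of 18 cell cycle genes passed on the right.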

How the data were processed

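RNA sequencing was done on 8 libraries, 4 Bach2-RFP HI and 4 Bach2-RFP LO, grouped by their titles. The table holds FPKM values that the authors made with Cuffnorm, per the name of the deposited table. Per the submitters' processing notes, the tools were HISAT2, cutadapt and FastQC, and the builds listed are mm9 and NCBIM37. Not given in the sources used here are the annotation, how Cuffnorm scaled the libraries and whether counting used strand. A single gene model took 24.5% to 30.4% of a library's summed FPKM, so sums are not depths. Relative depth came from ratios of models below 2 FPKM, of which 56.4% to 86.0% lay within 1% of ratios of whole numbers up to 6.

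Symbols were matched by Ensembl ID to a GENCODE annotation of another build, for 31840 of 36811 models. FPKM values, as deposited, were put on the log2(FPKM + 1) scale and fitted in limma 3.58.1 (R 4.3.3; eBayes with a variance trend, no covariates), for models that reached an FPKM of 1 in 4 or more libraries, with Benjamini-Hochberg adjustment at 0.05 over all of them. Differences are LO minus HI on this scale unless another comparison is named, and the scale understates the change of low genes. The comparison by the number in the label was fitted with the sort group as a covariate. The interaction fit held sex, sort group and their product. Overlap of libraries was read from the FPKM values. Promoters came from RefSeq (GRCm38.p6).

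The members and lists were chosen with earlier results of these data known. All 200 genes of the other lists were matched, and 1 further marker is not reported here. Up to 4 genes of each neighbouring list with the smallest p were named, marker genes where they passed, and library values were given for chosen members. Fos, Cdc20 and the genes of the lists under the number in the label were named after their values were seen. The alternatives were other pseudocounts, filters, scalings, covariates, a block and leaving out libraries.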

Additional observations from a re-analysis of the deposited data

Results flagged for a closer look

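Single libraries stood apart from the other 3 of their group in 4 of the 72 groups of 4 values examined for the members, by Dixon's criterion at 95% (a gap over range above 0.829), and chance flags about 1 in 20 groups. Pmvk was 54.3 FPKM in LO F2 (gap over range 0.94), Fdft1 was 14.3 in LO F1 (0.849), Hsd17b7 was 8.53 in LO M2 (0.858) and Abca1 was 1.30 in LO F2 (0.891). Abca1 was not tested, the remaining genes did not pass the test of LO against HI, and HI and LO overlapped in all 4.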

How the results depend on the processing

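No member passed with the pseudocount lowered to 0.1, the filter dropped or raised to 5 FPKM, upper quartile or quantile scaling, no variance trend, sex as a covariate, leaving out the shallowest and deepest library together, or leaving out any 1 library, where the count was 0 in each case and the smallest adjusted p lay between 0.0775 and 0.182. Scaling by the summed FPKM of protein-coding genes gave 2 higher members, Elovl1 (log2 difference 0.60, adjusted p = 0.0262) and Ebp (0.61, adjusted p = 0.0493). That scaling moved the median of all genes by 0.19, and relative to the moved median they were at 0.44 and 0.45. It gave 792 higher and 317 lower genes, 71.4% higher, against 524 and 410 in the main setting. The number in the label as a covariate, chosen after seeing the data, gave 1 lower member, Fdps (adjusted p = 0.0312). The exact permutation test without adjustment gave 2, Fdps and Elovl1. With 1 library left out, the count over all genes was 586 to 754 and the higher ones 286 to 453. It was lowest without LO F2, and the higher ones were 329 without LO F1. Signs of uncalled members turned in at most 9 of 33, without HI M2. The labels F1, F2, M1 and M2 recur in both groups. Over all tested genes, deviations of same-labelled HI and LO libraries correlated at 0.0149 to 0.113, and those of differently labelled ones at -0.0995 to 0.0583. These values do not settle whether the labels pair the libraries, and the main fit left pairing out. With the label as a replicate block, 0 members and 771 genes passed, and the smallest adjusted p was 0.0692 (Fdps). Read totals are unknown, so no counting error is given for any value. Under the tried pseudocount, filter and quantile settings the interaction count of members was also 0.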
